A study of Mus musculus with 4 samples.

Results

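Glycolysis breaks glucose down to pyruvate and lactate, the pentose phosphate pathway draws on the same glucose to make NADPH and ribose, and the hypoxia response adjusts both when oxygen is scarce. When oxygen is present, prolyl hydroxylases mark the HIF alpha subunits for destruction through VHL. When it is short, HIF pairs with ARNT and binds DNA at sites with the core letters ACGTG or GCGTG, and glucose carriers, glycolytic enzymes, *Vegfa* and *Bnip3* are among its best known target genes. Hematopoietic stem cells reside in a bone marrow that is low in oxygen, and leukemia cells are known for a high use of glucose. The genes described here are a list of 35 genes of these 3 processes, of which 33 were found among the 17104 genes of the table. They were picked by name and not by a measured value, though earlier results of these data were known. The 33 genes are 4 carriers of glucose and of lactate, 17 glycolytic enzymes, 3 regulators of glycolysis, 6 genes of oxygen sensing and its targets, and 3 enzymes of the pentose phosphate pathway. *Hif1a* and *G6pdx* were not analysed here.

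The libraries were made from bone marrow YFP+, c-kit+ leukemia cells of C57 mice, a fraction enriched for leukemia stem cells (LSCs), 6 weeks after the secondary transplantation. The leukemia was started with a retrovirus carrying the human fusion oncogene MLL-AF9 and YFP in lineage-negative bone marrow cells of CD37fl/fl, Cre+ mice. There were 2 CD37fl/fl and 2 CD37-/- replicates, all labelled as male and as independent. Both groups descend from cells with loxP sites around exons of *Cd37* and a tamoxifen-activated Cre that is made from the Rosa26 locus in every cell. In the leukemia model tamoxifen or corn oil was given to the recipient mice of the primary transplantation. No such injection is described for the secondary recipients. The earlier treatment of the cells goes with the genotype, and treatment and genotype cannot be told apart in these libraries. The host mice keep their own blood cells beside the leukemia, and support cells from bone marrow were transplanted along with it. Since RNA was taken from a sorted mass of cells, fewer cells of a type and less RNA per cell cannot be told apart.

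Expression is given as FPKM, fragments scaled by the length of the gene and by the depth of the library, and this length was the whole gene span, introns included. With it 98.7% to 98.9% of the values above 0 came out as whole reads, within 0.05 of a read, which chance meets for 10% of values, and the implied totals were 15327373 to 22627469 reads per library. Levels of different genes are therefore compared below as reads per kilobase of exon, scaled to a common depth. *Cd37*, the deleted gene, kept 44.6% of its CD37fl/fl mean in CD37-/- LSCs (log2 fold change -1.12, adjusted p = 0.104, limma with Benjamini-Hochberg adjustment). *Kit*, the gene of the sorted surface protein, had 1.56 and 2.98 scaled reads per kilobase of exon in CD37fl/fl libraries and 3.00 and 3.99 in CD37-/- libraries. *Hoxa9*, which is typical of this leukemia, had 55.6 and 60.7 against 67.6 and 60.2 on that scale, and *Mpo* had 254 and 163 against 109 and 65.7. The 10 leukemia progenitor markers found had a summed FPKM of 133 and 112 against 104 and 85.4. Of these, 4 were higher and 2 lower in both CD37-/- libraries, as were 37.3% and 17.6% of all 16973 genes above 0. CD37fl/fl replicate 2 stood apart, since all 10 markers of mature neutrophils were lowest there (summed FPKM 3589, against 10293 to 18397 in the other libraries). The 10 erythroid markers had a summed FPKM of 69.3 and 15.7 in CD37fl/fl and of 589 and 156 in CD37-/- libraries. Of 12 genes of dividing cells, 10 were higher in both CD37-/- libraries and 1 was lower, against 37.3% and 17.6% of all genes. Of the 10 monocyte markers, 8 were also lowest in CD37fl/fl replicate 2. The share of all genes lowest in that library was not taken, neither for this count nor for that of the neutrophil markers. The 4 markers of T and NK cells found summed to 94.7 and 118 against 40.3 and 41.4, nearly all of it *Nkg7*, while *Cd3d*, *Cd3g* and *Klrb1c* were at an FPKM of 0 to 0.129. Of the B cell markers, *Cd79b* had an FPKM of 12.5 and 15.3 against 8.02 and 6.16, while *Cd79a*, *Pax5* and *Ebf1* were at 0 to 0.321. The part of other cell types and of dividing cells in the differences below was not tested.

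Both CD37-/- libraries had more RNA of the glucose carriers, *Hk1*, *Hk2*, the regulator *Pfkfb3* and *Vegfa* than both CD37fl/fl libraries, and less of *Pgk1* and *Eno1*, enzymes of the later steps of glycolysis, whereas the pentose phosphate enzymes overlapped between the groups. None of these differences passed the adjusted threshold. The fit of log2(FPKM + 1) covered the 6761 genes whose FPKM averaged 1 or more, among them 25 of the 33 genes. With Benjamini-Hochberg adjustment in limma, 0 of the 25 were below an adjusted p of 0.05, as were 0 of all 6761 genes, and the smallest adjusted p of the 25 was 0.141. At an unadjusted p under 0.05 there were 6 of 25, which is the same share (24%) as over all tested genes (24%). These were 4 higher genes, where 16.1% of all tested genes were higher, and 2 lower ones, where 7.96% were lower. The groups did not overlap for 13 of the 25 genes, 8 higher and 5 lower, against 61.9% of all tested genes (38.2% higher and 23.7% lower). Over all 33 genes this held for 17, or 51.5%, with 11 higher and 6 lower, against 55% of the 16973 genes above 0 (37.3% higher and 17.6% lower). The median log2 fold change was 0.00 over the 25 genes, with 13 above and 12 below 0, and 0.11 over all tested genes. These shares were near or below those over all tested genes.

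**Figure D1:**
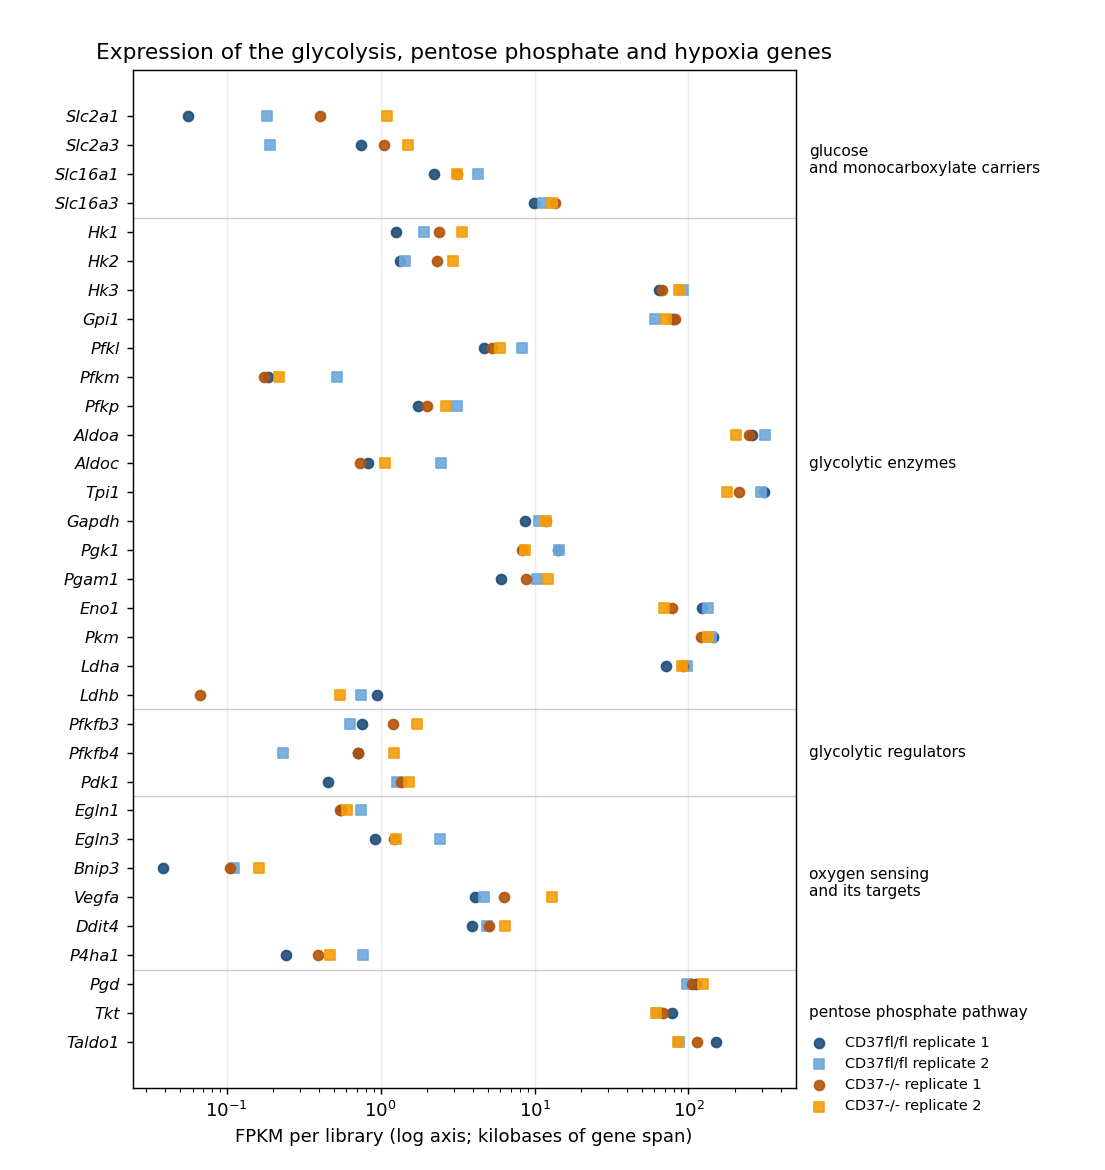
FPKM of the 33 genes in each of the 4 libraries, on a log axis, by function. Circles are replicate 1 and squares replicate 2 of CD37fl/fl (blue) and CD37-/- (orange). The orange points lie to the right of the blue ones for *Slc2a1*, *Hk1*, *Hk2* and *Vegfa* and to the left for *Pgk1*, *Eno1* and *Tpi1*, and *Pfkm*, *Aldoc* and *Egln3* have 1 distant point, CD37fl/fl replicate 2.

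The gap between the 2 CD37fl/fl libraries was larger than the fold change for 13 of the 25 tested genes on the log2 scale. This count and those by library below were not taken over all tested genes, so they do not set this list apart. Of all 33 genes, 23 were higher in CD37fl/fl replicate 2 than in replicate 1, and CD37fl/fl replicate 1 was the lowest of the 4 libraries for 17 genes. The highest library was CD37-/- replicate 2 for 13 genes and CD37fl/fl replicate 2 for another 13. The 8 genes with a mean FPKM under 1 (*Slc2a1*, *Slc2a3*, *Pfkm*, *Ldhb*, *Pfkfb4*, *Egln1*, *Bnip3* and *P4ha1*) were read from a second fit, of log2(FPKM + 0.1) over all 16973 genes above 0. An unadjusted p under 0.05 was seen there for 5 of the 33 genes (15.2%), 3 higher and 2 lower, against 17.6% of all its genes (13% and 4.67%). None, or 0 of 33, was below an adjusted p of 0.05 with Benjamini-Hochberg adjustment in limma. With limma-voom on the recovered reads, an unadjusted p under 0.05 was reached by 11 of the 33, a share above the 25.3% of all 13056 genes. An adjusted p under 0.05 was reached there by 0 of the 33, as by 0 of all 13056 genes.

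**Figure D2:**
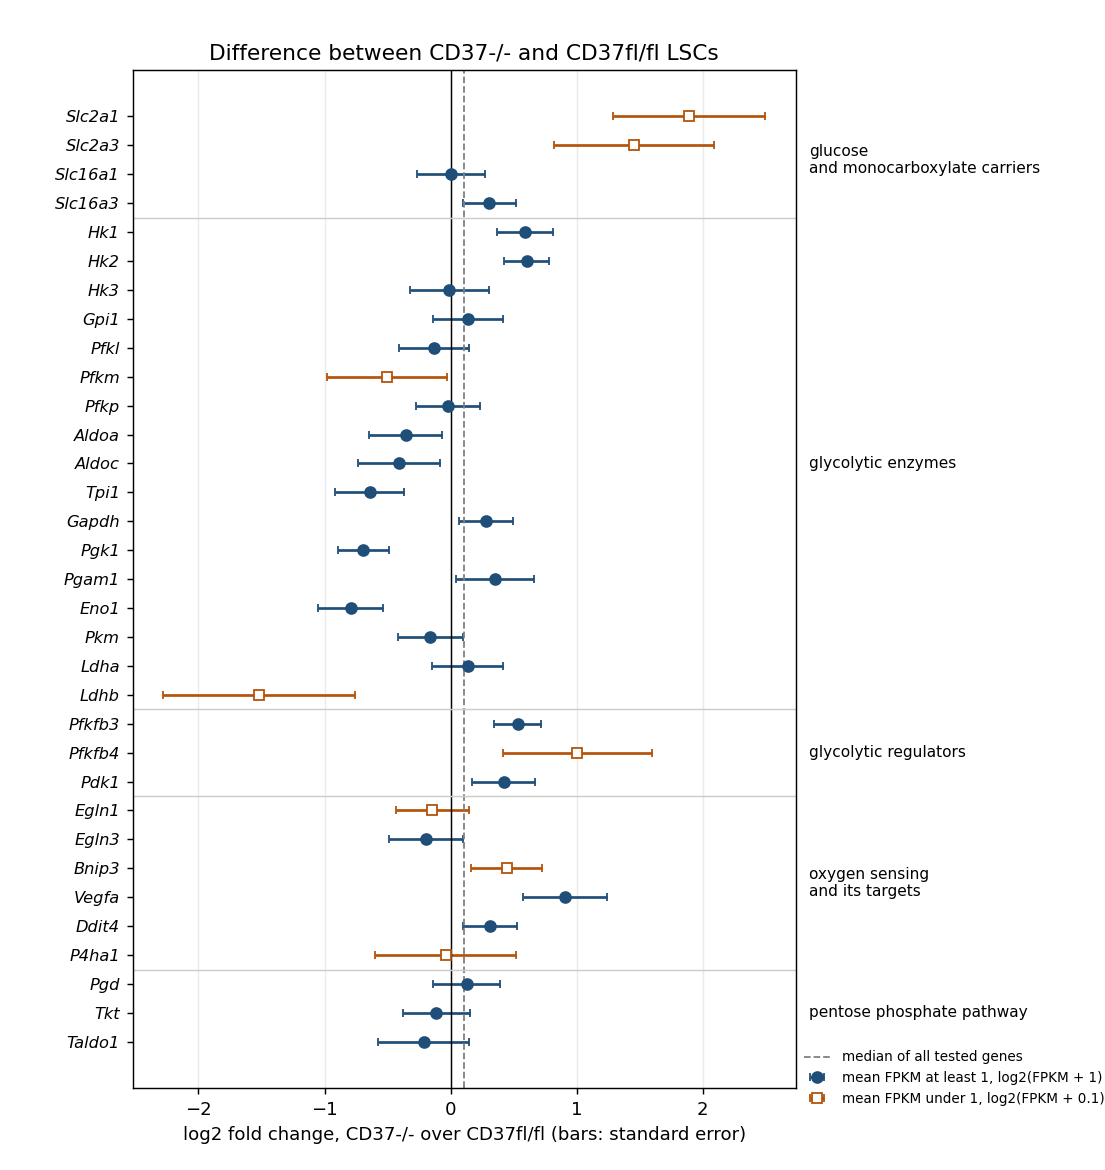
Log2 fold change of CD37-/- over CD37fl/fl LSCs for the 33 genes, with bars of 1 standard error (n = 2 libraries per group). Filled points are the 25 genes of the first fit and open squares the 8 genes with a mean FPKM under 1 from the second fit. The dashed line marks the median of all tested genes (0.11), and the glycolytic enzymes lie on both sides of it.

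Glucose enters cells through the carriers encoded by *Slc2a1* (GLUT1) and *Slc2a3* (GLUT3). *Slc2a1* had an FPKM of 0.0557 and 0.183 in the CD37fl/fl libraries, and 0.406 and 1.10 in those of CD37-/- LSCs, from 25, 93, 211 and 729 reads. Both CD37-/- libraries were above both CD37fl/fl libraries, but the values within each group were far apart. Its log2 fold change of 1.89 (standard error 0.60) had an unadjusted p of 0.0387 and an adjusted p of 0.269 (limma with Benjamini-Hochberg adjustment). It was 1.27 without CD37-/- replicate 2. *Slc2a3* had an FPKM of 0.741 and 0.191 in the CD37fl/fl libraries, and 1.05 and 1.5 in those of CD37-/- LSCs. Its groups did not overlap either, and its lowest library, CD37fl/fl replicate 2, was also the lowest for the neutrophil markers. The log2 fold change of 1.45 (standard error 0.64, unadjusted p = 0.0889, adjusted p = 0.330, limma with Benjamini-Hochberg adjustment) was 0.69 without that library. *Slc2a3* gave the larger share of the reads per kilobase of exon of the pair in all libraries, but this share ranged from 55.9% to 94.2% within CD37fl/fl and from 62.5% to 75.9% within CD37-/- LSCs. The carriers of lactate and pyruvate were closer together. *Slc16a3* (MCT4), which exports lactate, had an FPKM of 9.87 and 11.3 in CD37fl/fl and of 13.6 and 13.0 in CD37-/- libraries (log2 fold change 0.31, adjusted p = 0.396, limma with Benjamini-Hochberg adjustment). *Slc16a1* (MCT1) overlapped, at 2.21 and 4.29 against 3.13 and 3.12.

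Hexokinases carry out the first step of glycolysis and trap glucose in the cell as glucose 6-phosphate. *Hk1* had an FPKM of 1.26 and 1.91 in CD37fl/fl libraries (1.59 ± 0.455, SD, n = 2) and of 2.39 and 3.38 in CD37-/- libraries (2.89 ± 0.697, SD, n = 2), a log2 fold change of 0.59 (standard error 0.22, unadjusted p = 0.0399, adjusted p = 0.188, limma with Benjamini-Hochberg adjustment). *Hk2*, the form that many tumors use, had an FPKM of 1.33 and 1.44 (1.38 ± 0.0774, SD, n = 2) against 2.31 and 2.95 (2.63 ± 0.449, SD, n = 2), a log2 fold change of 0.60 (standard error 0.18, unadjusted p = 0.0160, adjusted p = 0.143, limma with Benjamini-Hochberg adjustment). The mean was 1.82-fold higher for *Hk1* and 1.90-fold higher for *Hk2* in CD37-/- LSCs, with no overlap for either gene. Their log2 fold changes were 0.39 and 0.40 after quantile normalization and 1.13 and 1.16 with TPM rescaling. Without CD37fl/fl replicate 1 that of *Hk1* was 0.41, and without CD37-/- replicate 2 it was 0.40. *Hk3*, the form typical of myeloid cells, overlapped at an FPKM of 64.2 and 92.6 against 67.0 and 87.4 (log2 fold change -0.01).

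**Figure D3:**
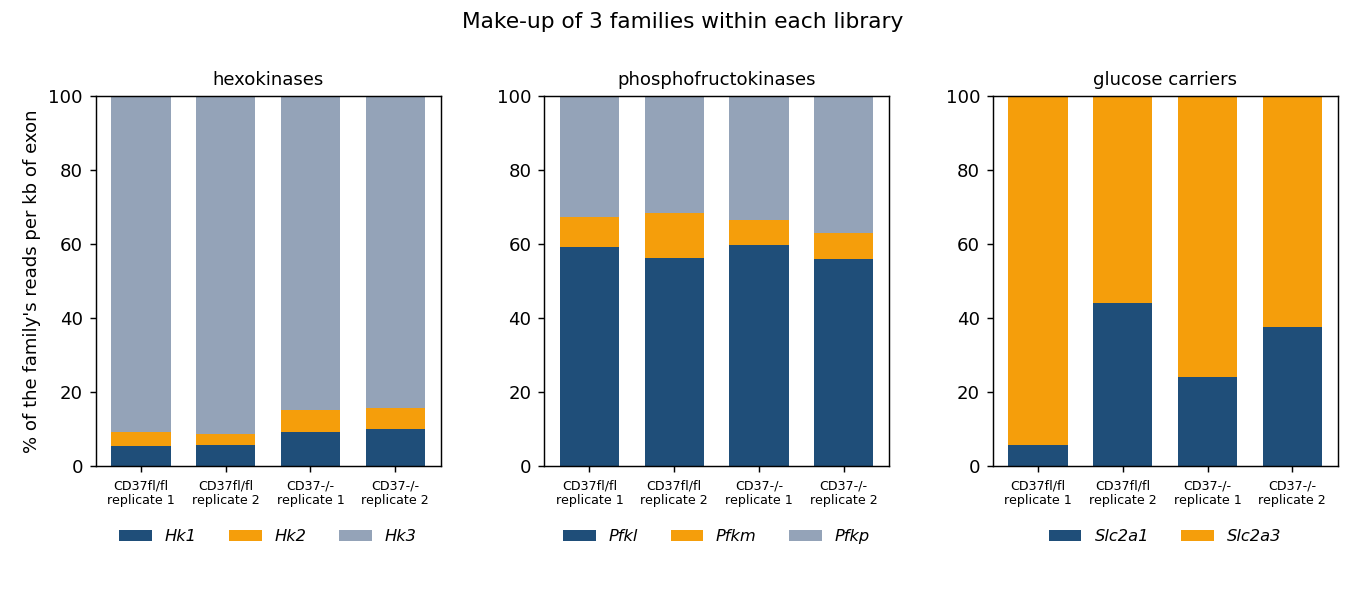
Share of each gene in the reads per kilobase of exon of its family, in percent, for 3 families in each library. *Hk3* makes up 90.7% and 91.3% of the hexokinases in the CD37fl/fl bars and 84.8% and 84.2% in the CD37-/- bars. The shares of *Pfkl* and of both glucose carriers overlap between the groups. Those of *Pfkm* (8.06% and 12.2% against 6.85% and 7.01%) and *Pfkp* (32.7% and 31.7% against 33.5% and 37.1%) do not.

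Within a library, these shares do not depend on the scaling between libraries. *Hk3* gave 90.7% and 91.3% of the hexokinase reads per kilobase of exon in CD37fl/fl libraries and 84.8% and 84.2% in CD37-/- libraries. *Hk1* took 5.56% and 5.86% against 9.42% and 10.1%, and *Hk2* took 3.72% and 2.81% against 5.79% and 5.63%. The gap between the groups was larger than that between the replicates for each of the 3 genes. With the length of the coding transcript in place of all exons, the *Hk3* share was 86.6% and 86.9% against 78.4% and 77.4%. An exact permutation test of 2 against 2 libraries cannot give a two-sided p below 0.333, and no test of these shares was run. No stretch of 75 bases of the 3 transcripts occurred in the transcripts of other genes.

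Phosphofructokinase commits sugar to glycolysis, and the FPKM of all 3 forms overlapped between the groups. The liver form *Pfkl* had an FPKM of 4.68 and 8.23 against 5.26 and 6.00, and the platelet form *Pfkp* of 1.74 and 3.13 against 1.99 and 2.68. The muscle form *Pfkm* was low, with an FPKM of 0.185 and 0.521 against 0.175 and 0.218. CD37fl/fl replicate 2 was the highest library for each of them, and the log2 fold changes of -0.13, -0.02 and -0.51 had adjusted p-values of 0.792, 0.969 and 0.587 (limma with Benjamini-Hochberg adjustment). *Pfkm* supplied 8.06% and 12.2% of the reads per kilobase of exon of the family in CD37fl/fl and 6.85% and 7.01% in CD37-/- libraries. *Pfkp* supplied 32.7% and 31.7% against 33.5% and 37.1%, so these shares did not overlap for either gene. Whether *Pfkl* or *Pfkp* came first depended on the exons counted.

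The regulators of these steps were higher in both CD37-/- libraries. *Pfkfb3* makes fructose 2,6-bisphosphate, the activator of phosphofructokinase. It had an FPKM of 0.752 and 0.629 (0.691 ± 0.0871, SD, n = 2) against 1.20 and 1.71 (1.46 ± 0.365, SD, n = 2), from 901 to 3206 reads, and a log2 fold change of 0.53 (standard error 0.19, unadjusted p = 0.0298, adjusted p = 0.169, limma with Benjamini-Hochberg adjustment). The CD37-/- mean was 2.11 times the CD37fl/fl mean, and the log2 fold change was 0.28 after quantile normalization. *Pfkfb4*, its relative, had an FPKM of 0.710 and 0.233 against 0.716 and 1.23. CD37fl/fl replicate 2, poor in neutrophil transcripts, was the lowest library for both genes, and CD37fl/fl replicate 1 and CD37-/- replicate 1 were nearly level for *Pfkfb4*. Its log2 fold change of 1.00 (standard error 0.59, adjusted p = 0.419, limma with Benjamini-Hochberg adjustment) was 0.36 without CD37fl/fl replicate 2. *Pdk1*, a kinase that keeps pyruvate out of the mitochondria by blocking pyruvate dehydrogenase, had an FPKM of 0.458 and 1.29 against 1.36 and 1.53 (log2 fold change 0.42, adjusted p = 0.335, limma with Benjamini-Hochberg adjustment). Its gap of 0.65 between the CD37fl/fl libraries on the log2 scale was larger than the fold change.

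The enzymes from glucose 6-phosphate isomerase to enolase were mostly abundant and went both ways. *Gpi1* overlapped, with an FPKM of 79.4 and 60.3 against 81.4 and 71.7. *Aldoa*, which splits the sugar and supplied over 99% of the aldolase reads per kilobase of exon, had an FPKM of 259 and 316 against 245 and 203. Its groups did not overlap (log2 fold change -0.36, adjusted p = 0.459, limma with Benjamini-Hochberg adjustment), but its direction turned under quantile normalization (0.13) and TPM rescaling (0.02). The brain form *Aldoc* overlapped and had 61 to 206 reads. *Tpi1*, which interconverts the products of aldolase, had an FPKM of 308 and 297 (303 ± 7.99, SD, n = 2) against 211 and 177 (194 ± 24.1, SD, n = 2). Its log2 fold change of -0.64 had an unadjusted p of 0.0574 and an adjusted p of 0.216 (limma with Benjamini-Hochberg adjustment). Without overlap, it lay just outside the unadjusted threshold, and after quantile normalization its log2 fold change was -0.18.

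*Pgk1* makes the first ATP of glycolysis. It had an FPKM of 14.3 and 14.4 in CD37fl/fl libraries (14.4 ± 0.0789, SD, n = 2) and of 8.33 and 8.69 in CD37-/- libraries (8.51 ± 0.253, SD, n = 2). The replicates were close in both groups, and the CD37-/- mean was 0.593 of the CD37fl/fl mean. Its log2 fold change of -0.69 (standard error 0.20, unadjusted p = 0.0146, adjusted p = 0.141, limma with Benjamini-Hochberg adjustment) was -0.37 after TPM rescaling. *Eno1*, the enolase of most tissues, had an FPKM of 123 and 134 (129 ± 7.88, SD, n = 2) against 78.4 and 69.3 (73.8 ± 6.46, SD, n = 2). Its mean was 0.574 of that in CD37fl/fl LSCs, with a log2 fold change of -0.79 (standard error 0.26, unadjusted p = 0.0230, adjusted p = 0.157, limma with Benjamini-Hochberg adjustment), -0.53 after quantile normalization and -0.42 after TPM rescaling. *Pgam1*, which acts between these enzymes, overlapped at an FPKM of 6.02 and 10.4 against 8.78 and 12.3.

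Glycolytic enzymes have many processed pseudogenes, and reads from a shared stretch can be given to either copy or dropped. *Gapdh* had only 634 to 1284 reads per library, or 12.4 scaled reads per kilobase of exon, against 618 for *Pkm* and 376 for *Ldha*. Of its 75-base stretches, 88.2% occurred unchanged in the transcripts of 121 other genes, 31 of them in the table. This share was 67.5% for *Pgk1*, 65.4% for *Eno1*, 40.6% for *Pgam1*, 31.0% for *Bnip3*, 16.7% for *Ldhb*, 15.6% for *Pkm*, 10% for *Gpi1* and 5.2% for *Ldha*. The values of these genes are therefore uncertain, those of *Gapdh* most of all. The following coding stretches of 75 bases are shown because each is shared with other genes, 49 for *Gapdh*, 5 for *Eno1* and 3 for *Pgk1*. They start at coding base 493, 445 and 808 of the GENCODE M21 transcripts.
Gapdh: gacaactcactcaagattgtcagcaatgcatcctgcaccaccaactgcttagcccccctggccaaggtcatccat
Eno1: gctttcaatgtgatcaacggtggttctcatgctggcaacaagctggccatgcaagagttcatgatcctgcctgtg
Pgk1: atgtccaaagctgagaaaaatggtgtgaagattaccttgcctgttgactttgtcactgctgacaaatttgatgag
The copies did not all follow their parent gene. *Pgk1-rs7*, which holds nearly all shared stretches of *Pgk1*, had 105 and 168 reads in CD37fl/fl and 256 and 831 in CD37-/- libraries, while *Pgk1* had 3639 and 4146 against 2453 and 3263 reads. *Gm4735*, the copy of *Eno1* in the table, had 5827 and 6991 against 3465 and 5868 reads. *Pgam1-ps2* had 340 and 643 against 1096 and 2985 reads, of which the latter pair is above the 1050 and 1877 reads of *Pgam1* itself. The part of read sharing in the differences of these genes was not tested.

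*Gapdh*, an enzyme of glycolysis that was the reference gene of the qPCR in the study, had an FPKM of 8.70 and 10.7 (9.71 ± 1.42, SD, n = 2) in CD37fl/fl and of 11.9 and 11.9 (11.9 ± 0.0141, SD, n = 2) in CD37-/- libraries. It was higher in both CD37-/- libraries, by 0.28 on the log2 scale (standard error 0.21, unadjusted p = 0.244, adjusted p = 0.441, limma with Benjamini-Hochberg adjustment). The gap between the CD37fl/fl libraries was 0.27 on that scale, about as large as the difference between the groups. The log2 fold change was 0.11 after division by the upper quartile and 0.67 after TPM rescaling.

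At the end of glycolysis, *Pkm*, the pyruvate kinase of these cells, had an FPKM of 143 and 140 against 120 and 134 (log2 fold change -0.16, adjusted p = 0.719, limma with Benjamini-Hochberg adjustment). Its sign turned under quantile normalization (0.18) and TPM rescaling (0.22). *Ldha*, which turns pyruvate into lactate, overlapped at 71.2 and 97.2 against 91.8 and 91.1. *Ldhb*, the form that favors the reverse reaction, was low. Its FPKM was 0.943 and 0.743 in CD37fl/fl and 0.0668 and 0.542 in CD37-/- libraries, from 256, 228, 21 and 217 reads. Both CD37-/- libraries were lower, but the distance came from CD37-/- replicate 1, since the log2 fold change of -1.52 (standard error 0.76, adjusted p = 0.368, limma with Benjamini-Hochberg adjustment) was -0.55 without it. *Ldha* gave 96.6% to 99.8% of the reads per kilobase of exon of the pair.

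Among the genes of oxygen sensing and their targets, *Vegfa*, the main growth factor of blood vessels, was the one with an unadjusted p under 0.05. Its FPKM was 4.08 and 4.69 (4.38 ± 0.428, SD, n = 2) in CD37fl/fl and 6.31 and 12.9 (9.62 ± 4.67, SD, n = 2) in CD37-/- libraries. CD37-/- replicate 2 was far above replicate 1, and without it the log2 fold change of 0.91 (standard error 0.33, unadjusted p = 0.0357, adjusted p = 0.179, limma with Benjamini-Hochberg adjustment) was 0.44. *Ddit4*, an inhibitor of mTORC1 that stress and hypoxia induce, had an FPKM of 3.95 and 4.93 against 5.07 and 6.45, without overlap (log2 fold change 0.31, adjusted p = 0.392, limma with Benjamini-Hochberg adjustment). The other targets overlapped. *Bnip3*, a receptor for the removal of mitochondria, was close to the limit of detection, with an FPKM of 0.0384 and 0.111 against 0.106 and 0.163 from 11 to 69 reads, and its log2 fold change was 0.44 (adjusted p = 0.452, limma with Benjamini-Hochberg adjustment). *P4ha1*, which hydroxylates collagen, had an FPKM of 0.241 and 0.764 against 0.392 and 0.468 (log2 fold change -0.04, adjusted p = 0.984, limma with Benjamini-Hochberg adjustment). The oxygen sensors *Egln1* (PHD2) and *Egln3* (PHD3), of which the latter is itself a HIF target, overlapped as well. *Egln1* had an FPKM of 0.554 and 0.748 against 0.547 and 0.601 (log2 fold change -0.15, adjusted p = 0.813, limma with Benjamini-Hochberg adjustment). *Egln3* had 0.923 and 2.43 against 1.23 and 1.26, and CD37fl/fl replicate 2 was its highest library, as it was for *Egln1* and *P4ha1*.

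HIF binding was not measured here, and only the letters of its core site can be given. RefSeq windows of 250 bases before the transcription start (GRCm38.p6) were at hand for 32 of the 33 genes, not for *Slc2a3*. ACGTG or GCGTG, on either strand, was present in at least 1 window of 30 of the 32 genes (93.8%), against 63.3% of the 4690 genes of the first fit with a window and 41.5% of all 27025 genes with one. ACGTG alone was present in 56.2% of the 32 genes and 27.3% of the 4690. The list was picked by name and holds well known HIF targets, so these shares are no test of it. ACGTG overlaps CACGTG, the E-box bound by MYC and others. Several genes have more than 1 window, which gives more places for a match. There were 47 windows for the 32 genes, and 32851 for all 27025 genes. The windows of a pair of genes with higher and a pair with lower values in CD37-/- LSCs are shown, as these differ in direction, with the letters in capitals (CACGT and CACGC are the same letters on the other strand). They are *Hk2*, chr6:82774455-82774704, minus strand; *Vegfa*, chr17:46032378-46032627, minus strand; *Pgk1*, chrX:106186850-106187099, plus strand; and *Eno1*, chr4:150236458-150236707, plus strand, each written in the direction of the gene.
Hk2: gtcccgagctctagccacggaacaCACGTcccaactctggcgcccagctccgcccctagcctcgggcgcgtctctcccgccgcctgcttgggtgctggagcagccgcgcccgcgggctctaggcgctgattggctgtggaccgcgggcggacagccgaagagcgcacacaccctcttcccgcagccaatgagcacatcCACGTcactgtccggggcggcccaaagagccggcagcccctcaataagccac
Vegfa: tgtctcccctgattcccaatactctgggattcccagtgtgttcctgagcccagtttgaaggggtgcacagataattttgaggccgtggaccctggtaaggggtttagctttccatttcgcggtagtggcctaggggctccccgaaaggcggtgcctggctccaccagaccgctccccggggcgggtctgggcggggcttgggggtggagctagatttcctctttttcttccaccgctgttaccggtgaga
Pgk1: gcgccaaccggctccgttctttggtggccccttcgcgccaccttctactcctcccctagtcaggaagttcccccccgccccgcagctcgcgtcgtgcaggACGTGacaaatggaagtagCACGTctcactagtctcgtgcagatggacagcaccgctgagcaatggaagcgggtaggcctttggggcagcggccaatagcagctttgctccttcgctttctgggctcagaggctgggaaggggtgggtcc
Eno1: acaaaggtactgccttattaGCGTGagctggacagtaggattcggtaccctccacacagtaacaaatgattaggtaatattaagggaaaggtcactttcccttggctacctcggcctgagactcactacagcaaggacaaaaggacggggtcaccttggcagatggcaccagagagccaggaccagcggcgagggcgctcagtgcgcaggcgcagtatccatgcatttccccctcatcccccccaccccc
In the windows shown, *Hk2* and *Pgk1* hold 2 matches each, *Eno1* holds 1 and *Vegfa* 0. *Vegfa* has another window and *Eno1* has 2 others, and each of these holds 2 matches.

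The pentose phosphate enzymes were abundant and overlapped between the groups in all 3 cases. *Pgd*, which makes NADPH in the oxidative branch, had an FPKM of 112 and 98.2 against 105 and 125. *Tkt* and *Taldo1*, which link the pathway back to glycolysis, had 78.4 and 62.6 against 68.0 and 61.6, and 151 and 87.1 against 114 and 85.9. Their log2 fold changes were 0.13, -0.11 and -0.21, and the adjusted p-values 0.789, 0.812 and 0.731 (limma with Benjamini-Hochberg adjustment).

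**Figure D4:**
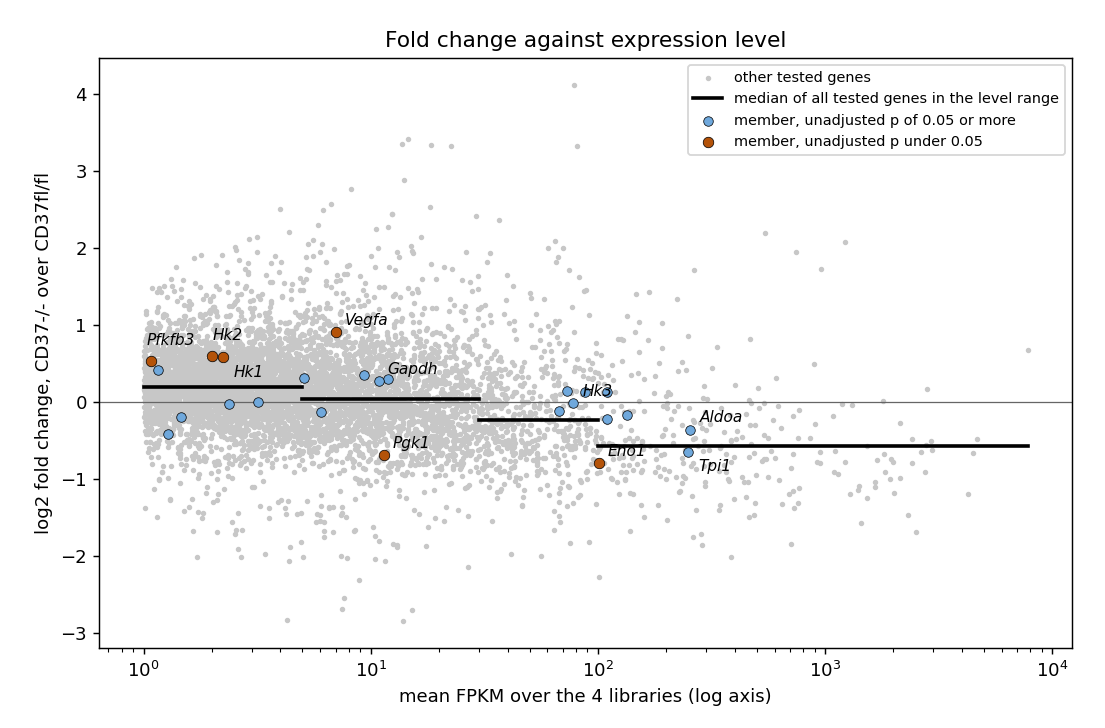
Log2 fold change against the mean FPKM over the 4 libraries (log axis) for the 6761 tested genes. Black bars are the median of all tested genes in 4 ranges of level, from 0.20 at an FPKM of 1 to 5 down to -0.57 above 100, and the 25 listed genes are drawn in color, those with an unadjusted p under 0.05 in brown.

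Fold changes varied with the level, taken here as the FPKM over the gene span. Over all tested genes the median log2 fold change was 0.20 at a mean FPKM of 1 to 5, 0.04 from 5 to 30, -0.24 from 30 to 100 and -0.57 above 100. *Hk1*, *Hk2* and *Pfkfb3* were in the lowest range and *Eno1*, *Tpi1* and *Aldoa* in the highest. In the same 4 ranges the listed genes, 8, 7, 4 and 6 in number, had medians of 0.21, 0.31, 0.06 and -0.29. *Pgk1* and *Vegfa*, with a mean FPKM of 11.4 and 7.00, were in a range whose median was near 0. By gene span, the median of all tested genes was -0.08 under 6 kb, 0.11 from 6 to 25 kb and 0.22 from 25 kb on, where *Hk1*, *Hk2* and *Pfkfb3* belong. The part of level and of span in the single differences was not tested.

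Further genes of the same pathways were taken from 5 lists with 113 symbols, of which 95 were found and 52 tested. At an unadjusted p under 0.05, 6 of the 52 were higher and 3 lower in CD37-/- LSCs, which is not above the 16.1% and 7.96% of all tested genes, and 0 were below an adjusted p of 0.05 with Benjamini-Hochberg adjustment in limma. Among isoforms and side enzymes of glycolysis, 2 of 11 tested genes were higher and 0 lower. *Adpgk*, a hexose kinase that uses ADP, had an FPKM of 3.84 and 2.73 against 7.43 and 7.98 (log2 fold change 1.03, adjusted p = 0.0941). *Pgam2*, the muscle form of phosphoglycerate mutase, had 0.218 and 0.386 against 1.43 and 2.55 (1.18, adjusted p = 0.0908). Both p-values are from limma with Benjamini-Hochberg adjustment, and neither gene overlapped between the groups. The 6 tested genes of pyruvate entry held 0 in either direction. Of the 11 found, 6 were higher and 0 lower without overlap, against 37.3% and 17.6% of all genes of the second fit. At an unadjusted p under 0.05 that fit held 2 higher and 0 lower, against 13% and 4.67% of all its genes. These 2 are named after their values were seen. *Mpc1*, a subunit of the mitochondrial pyruvate carrier, had an FPKM of 0.150 and 0.172 against 1.02 and 0.671 (log2 fold change 1.83, unadjusted p = 0.00598, adjusted p = 0.235, limma with Benjamini-Hochberg adjustment). *Pdk2*, a kinase that inhibits pyruvate dehydrogenase, had 0.0778 and 0.119 against 0.190 and 0.208 (log2 fold change 0.60, adjusted p = 0.273, limma with Benjamini-Hochberg adjustment). The 6 tested genes of the pentose phosphate list held 1 in each direction. *Rpe*, an epimerase of the pathway, had an FPKM of 1.58 and 1.74 against 3.37 and 3.88 (log2 fold change 0.79). *Pgls*, which acts in the oxidative branch before *Pgd*, had 53.8 and 42.8 against 30.3 and 20.7 (-0.91).

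Of the 9 tested genes of the oxygen sensing machinery, 1 was higher and 0 were lower. This was *Cited2*, which competes with HIF for its coactivators, with an FPKM of 42.2 and 46.7 against 73.3 and 68.7 (log2 fold change 0.66, adjusted p = 0.181, limma with Benjamini-Hochberg adjustment). Among 20 tested HIF target genes, 2 were higher and 2 lower. *Bnip3l*, a relative of *Bnip3* that removes mitochondria in maturing red cells, had an FPKM of 2.35 and 1.48 against 3.46 and 3.23 (0.59), beside the erythroid markers that were also higher. *Wsb1*, part of a ubiquitin ligase, had 8.76 and 10.4 against 17.2 and 17.4 (0.80). *Nupr1*, a stress-induced regulator of transcription, had 7.28 and 8.07 against 2.07 and 2.32 (-1.44, adjusted p = 0.0502, limma with Benjamini-Hochberg adjustment), the smallest adjusted p of these lists. *Stc2*, a secreted glycoprotein, had 1.08 and 4.57 against 0.146 and 0.540 (-1.36). Of the 36 HIF target genes found, 16 were higher and 4 lower without overlap, against 37.3% and 17.6% of all genes of the second fit, in which 5 were higher and 1 lower at an unadjusted p under 0.05 (13% and 4.67% of all genes there).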

How the data were processed

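The 4 libraries were poly(A) RNA libraries with strand marking by dUTP. The authors deposited FPKM values, 1 column per library, for 17104 genes, without a log and without pooling. The submitters' processing notes name fastp 0.20.1, STAR 2.7.7a, featureCounts 2.0.0 and edgeR, and the build mm39. The deposited values came out as whole reads with the gene spans of GENCODE M21 (GRCm38), to which 17045 identifiers (99.7%) were matched, so gene positions and names were taken from it. Lengths with introns lower the FPKM of genes with long introns. They leave the plain ratio of FPKM between libraries alone, but they decide which genes pass a filter on FPKM. They also make the fitted log2 fold changes of such genes smaller, since a constant was added to the FPKM before the log.

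Genes whose FPKM averaged 1 or more were tested on log2(FPKM + 1), and all genes above 0 on log2(FPKM + 0.1), by the lmFit function of limma 3.58.1 in R 4.3.3, followed by eBayes with an intensity trend, two-sided, with Benjamini-Hochberg adjustment over all genes of the fit and a threshold of 0.05. A fold change on these scales understates the change of low genes. The replicates are labelled as independent, with no statement on the animals behind them, so p-values measure the spread between these samples. Both fits were first tested on simulated data with known changes. At an adjusted p under 0.05 in limma, the first fit recovered 32% of log2 changes of 1 and the second 18%. For log2 changes of 2 these shares were 98% and 60%, and each fit made 10 false calls.

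Shared stretches were found by looking up every 75-base window of the transcript with the longest coding sequence in the transcripts of all other genes of GENCODE M21. Values per library are named for genes with an unadjusted p under 0.05, genes with a mean FPKM under 1 and *Gapdh*, and for up to 4 genes per further list with the largest changes at an unadjusted p under 0.05 without overlap; the values of the other genes stand beside them for completeness. The genes and lists were chosen with earlier results of these data known. Alternatives were other pseudocounts, filters, scalings and variance models, exon length, limma-voom, the replicate number as a block and each library left out; exon length with its own filter and limma-voom with the block were added after the data had been seen. Python 3.11.15 with matplotlib 3.10.9, numpy 2.4.6 and pandas 2.3.3 served for tables and plots.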

Additional observations from a re-analysis of the deposited data

How the results depend on the processing

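Each group had 2 libraries, and the values of *Slc2a1*, *Bnip3*, *Ldhb* and *Aldoc* rest on few reads in some of them. Under the alternatives run for each gene (16 or 17 for genes of the first fit, 10 for those with a mean FPKM under 1) 0 of the listed genes were below an adjusted p of 0.05 with Benjamini-Hochberg adjustment in limma, and *Hk1*, *Hk2*, *Pfkfb3*, *Vegfa*, *Pgk1*, *Eno1*, *Gapdh*, *Slc2a1*, *Slc2a3*, *Pfkfb4*, *Ldhb* and *Bnip3* kept their direction. The cause of the changes below was not tested.

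The 4 higher genes at an unadjusted p under 0.05 became 2 with all genes above 0 tested, 1 when the FPKM had to average 5 or more (17 genes left), 0 after quantile normalization and 1 after division by the upper quartile, and 0 to 4 without 1 library, the 0 without CD37fl/fl replicate 1 and without CD37-/- replicate 2. In place of 2 lower genes quantile normalization left 1, TPM rescaling 0 and the fits with 3 libraries 0 to 3. Quantile normalization moved the median log2 fold change to 0.18, TPM rescaling to 0.37 and leaving out 1 library to 0.0018 to 0.25, while these scalings moved the median of all tested genes from 0.11 to -0.02 and 0.49.

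Among the genes with no call, quantile normalization turned *Slc16a1* to -0.19, *Hk3* to 0.21, *Aldoa* to 0.13, *Pkm* to 0.18, *Tkt* to 0.0703 and *Taldo1* to 0.0864. TPM rescaling turned *Hk3* to 0.37, *Pfkl* to 0.23, *Pfkp* to 0.33, *Aldoa* to 0.0222, *Pkm* to 0.22, *Egln3* to 0.0759, *Tkt* to 0.27, *Taldo1* to 0.16, *Egln1* to 0.21 and *P4ha1* to 0.35. Division by the upper quartile turned *Slc16a1* to -0.14, *Gpi1* to -0.0408, *Ldha* to -0.0470 and *Pgd* to -0.0545. With 1 library left out, the log2 fold change ranged from -0.36 to 0.36 for *Slc16a1*, from -0.27 to 0.25 for *Hk3*, from -0.0559 to 0.34 for *Gpi1*, from -0.48 to 0.22 for *Pfkl*, from -0.32 to 0.28 for *Pfkp*, from -0.87 to 0.0524 for *Aldoc*, from -0.0875 to 0.36 for *Ldha*, from -0.61 to 0.22 for *Egln3*, from -0.27 to 0.0474 for *Tkt*, from -0.61 to 0.18 for *Taldo1*, from -1.07 to 0.0554 for *Pfkm*, from -0.33 to 0.0415 for *Egln1* and from -0.71 to 0.63 for *P4ha1*; CD37fl/fl replicate 2 turned 9 of these genes, CD37fl/fl replicate 1 turned 4 and CD37-/- replicate 1 turned 4.

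For the further lists, 1 gene had an adjusted p under 0.05 after division by the upper quartile, with robust variance estimation and with exon length, and 2 with limma-voom and the block. The unadjusted counts were 3 higher and 1 lower where the FPKM had to average 5 or more, 15 higher after TPM rescaling and 5 lower after division by the upper quartile, and the median of 0.10 was -0.0596, 0.472 and -0.0426 there.

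The replicate numbers did not pair the libraries, with a correlation of -0.04 between the deviations of same-numbered libraries across 6761 genes, which are not independent. With the replicate block, 4 higher and 2 lower listed genes had an unadjusted p under 0.05, as without it, 0 passed the adjusted threshold and the median was 0.00. With limma-voom and the block, *Slc16a1* turned to -0.0029.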
